A study of Mus musculus with 7 samples.

Results

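The Hox cluster genes were examined in RNA-seq counts of LSK cells, the Lin-Sca1+Kit+ cells of mouse bone marrow that include hematopoietic stem cells and multipotent progenitors. Members were the rows of the counts table whose symbol is Hoxa, Hoxb, Hoxc or Hoxd followed by a number, with 1 row left out by the selection rule. This gave 38 genes of 24421 rows, with 11 in the Hoxa, 9 in the Hoxb, 9 in the Hoxc and 9 in the Hoxd cluster. The rule used no measured value, but the members and the gene lists used below were chosen with earlier results of these data known. Genotypes were compared for the genes with at least 10 counts in every sample.

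The samples came from lethally irradiated BoyJ recipients of marrow from Rosa-CreERT2 donors, in which a tamoxifen-activated recombinase is expressed broadly and not only in blood cells. Donors of the 4 Ddx41+/+ samples (replicates 1 to 4) had wild-type Ddx41, and donors of the 3 Ddx41+/- samples (replicates 6 to 8) had 1 floxed and 1 wild-type Ddx41 allele. Recipients of both kinds received 1 mg of tamoxifen per injection in 2 rounds of 5 days, so the Cre and the drug were shared by both groups, and sorting followed at 8 weeks from transplantation. Ages of the mice are not given in the labels. Each sample was taken from 1 mouse and held RNA of sorted cells only, and a sorted pool can still hold some cells of the recipient. A Ddx41+/- library numbered 5 was removed by the submitters for a reason that is not stated, and it was not analysed here.

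Hox genes encode homeodomain transcription factors that give cells along the body axis their positional identity, and they lie in clusters whose order along the chromosome follows the order of their expression in the embryo. In adult blood formation they mark immature cells. Hoxa9 and Hoxa10 are known to support stem and progenitor cell growth and are shut down as cells mature, Hoxb4 is known for expanding stem cells when overexpressed, and Hoxa9 together with its cofactor Meis1 is a well-known driver of leukemia. Trithorax proteins such as MLL (Kmt2a) keep the clusters active, and Polycomb proteins keep them silent.

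Total counts per sample ranged from 32234499 to 43751290. Ddx41, the deleted gene and a DEAD-box RNA helicase (chr13:55530410-55536658, GRCm38), was at 92.8, 98.7, 93.2 and 106.6 CPM (counts scaled to library size with TMM factors) in Ddx41+/+ replicates 1 to 4. It was at 68.1, 64.4 and 69.5 CPM in Ddx41+/- replicates 6, 7 and 8. All Ddx41+/- samples lay below all Ddx41+/+ samples (log2 fold change -0.54, SE 0.071, edgeR quasi-likelihood test, Benjamini-Hochberg (BH) adjusted p = 0.0052). Of the LSK-defining genes, Kit ranged from 427 to 505 CPM and Ly6a, which encodes Sca1, from 13.3 to 30.5 CPM over the samples, with log2 fold changes between genotypes of at most 0.011 in size. Both ends of the Ly6a range were Ddx41+/- samples, replicate 8 lowest and replicate 7 highest. Its mean was 20.9 ± 2.56 CPM in Ddx41+/+ (SD, n = 4) and 20.8 ± 8.81 CPM in Ddx41+/- samples (SD, n = 3). Of the T-cell genes Cd3d, Cd3e and Cd3g, no sample exceeded 0.386 CPM, while other genes of the T and NK cell list reached higher values, with up to 2.12 CPM for Cd4, 9.22 CPM for Thy1 and 281.0 CPM for Nkg7.

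Hox transcripts made up a small part of the libraries, and that part came from the Hoxa and Hoxb clusters. The 38 genes held 30810 of 265076812 counts over all samples (0.0116%). Of these counts, 83.6% fell on the Hoxa genes and 16.3% on the Hoxb genes. Over the samples the Hoxa share ranged from 81.2% to 87.6% of the Hox counts. The 18 Hoxc and Hoxd genes together held 49 counts in all 7 libraries, and 5 of them had any count. Hoxa9 alone held between 43.0% and 50.5% of the Hox counts of a sample.

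**Figure D1:**
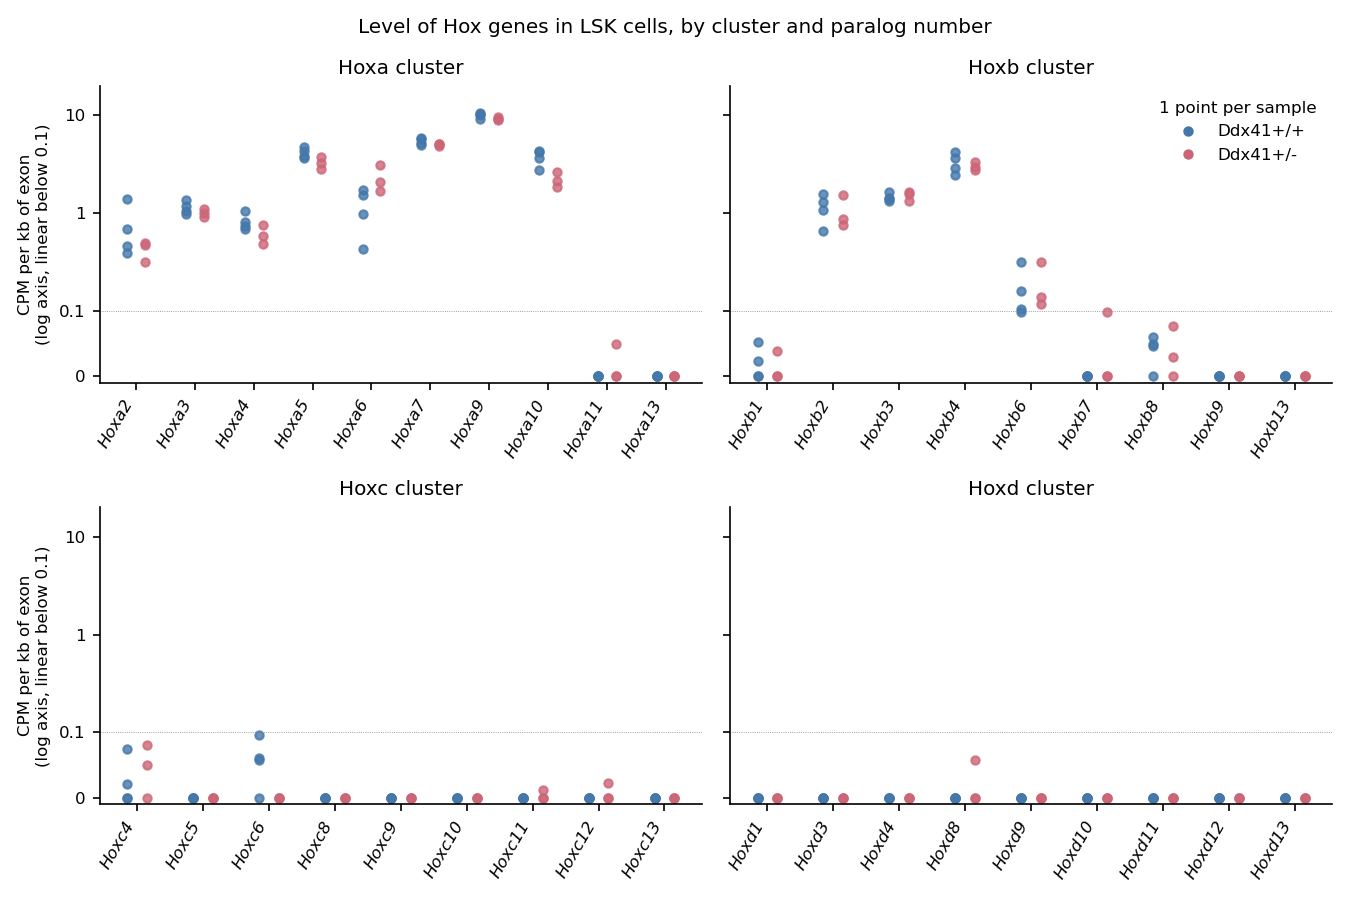
CPM per kb of exon (log axis, linear below 0.1) of the Hox genes, with 1 panel per cluster, genes in order of their number and 1 point per sample for Ddx41+/+ (blue) and Ddx41+/- (red). Hoxa2 to Hoxa10 and Hoxb2 to Hoxb4 lie above 0.3 CPM per kb in every sample, and the Hoxc and Hoxd genes lie at or near 0.

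Within each active cluster the examined genes with at least 10 counts in every sample formed 1 block. In the Hoxa cluster (chr6:52162417-52260880 from Hoxa2 to Hoxa13, minus strand, GRCm38) all genes from Hoxa2 to Hoxa10 had at least 10 counts in every sample. Beyond the block, Hoxa11 had 5 counts in Ddx41+/- replicate 8 and 0 in the other samples, and Hoxa13 had none. The drop was therefore steep at the 5' end of the cluster, from 2649 counts over all samples for Hoxa10 to 5 for its neighbour Hoxa11.

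In the Hoxb cluster (chr11:96194316-96368256, plus strand) the block held Hoxb2, Hoxb3 and Hoxb4. The Hoxb row left out by the selection rule was not examined, so the full extent of this block is not given. Hoxb6 had between 7 and 26 counts per sample and fell short of the minimum in 3 of the 7 samples. Hoxb8 had at most 9 counts, Hoxb7 at most 6 and Hoxb1 at most 5 in a sample. Hoxb9 and Hoxb13 had none.

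In the Hoxc cluster (chr15:102921103-103036852) the counts summed over all samples were 20 for Hoxc4, 20 for Hoxc6, 1 for Hoxc11 and 1 for Hoxc12. Hoxc5, Hoxc8, Hoxc9, Hoxc10 and Hoxc13 had none. In the Hoxd cluster (chr2:74668310-74765142) Hoxd8 had 7 counts, all in Ddx41+/- replicate 8, and the 8 other genes had none. The sum of counts over the samples was 1 to 93 for the 11 genes with some counts but under 10 in at least 1 sample, and 16 genes had no count at all. A count of 0 in a library allows a level of up to 0.0686 to 0.0931 CPM, taking 3 counts as the floor. This covers counting error only, and such genes were not detectable at this depth.

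Levels of different genes were compared as CPM per kb of exon, with exon lengths from the GENCODE M21 annotation, over all 7 samples. Hoxa9 was highest at 9.72 ± 0.587 CPM per kb (SD, n = 7), and Hoxa7 followed at 5.26 ± 0.378. Hoxa5 came next at 3.78 ± 0.649. These steps were clear of the spread, since every sample was higher for Hoxa9 than any sample for Hoxa7, and every sample was higher for Hoxa7 than any sample for Hoxa5. From there on each gene overlapped the next in the order. Hoxb4, at 3.18 ± 0.6004, was the highest Hoxb gene and lay beside Hoxa10 at 3.09 ± 1.00, with Hoxb4 above Hoxa10 in 4 of 7 samples. Hoxa6 (1.65 ± 0.840), Hoxb3 (1.48 ± 0.137), Hoxb2 (1.11 ± 0.371) and Hoxa3 (1.09 ± 0.151) formed the next group. Hoxa4 at 0.732 ± 0.183 and Hoxa2 at 0.603 ± 0.369 were lowest. The order below Hoxa7 depended on which exon length was used. With the length of the longest transcript Hoxa10 moved up to rank 3 and Hoxa3 to rank 6, and 5 of the 11 genes kept their rank.

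Exons of several of these genes overlap other annotated transcripts, which bears on how far their counts can be told apart. By the annotation only 47.1% of the Hoxb3 exon length and 72.7% of the Hoxb2 exon length belong to no other gene, and the share was 72.9% for Hoxa3, 79.6% for Hoxa7, 84.0% for Hoxa4 and 85.0% for Hoxa2. For Hoxa9 it was 98.5%, with the microRNA gene Mir196b inside its exons, and for Hoxa5, Hoxa6, Hoxa10 and Hoxb4 it was 100%. The labels name a stranded kit and the study's methods name an unstranded one, and neither states the strand setting, so reads of Hoxa2, Hoxa3, Hoxa4, Hoxa7, Hoxb2 and Hoxb3 in the shared parts cannot be separated from those of overlapping or antisense transcripts.

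Promoter windows of 250 bases before the start were available from RefSeq (GRCm38.p6) for 8 of the 11 genes compared, with 2 starts for Hoxa10. The windows of Hoxa10 and Hoxa9 are shown because Hoxa10 is the member with the largest difference by p and Hoxa9 the member with the most counts, and because the pair lies side by side on the chromosome. Capitals mark a TATA box (TATAAA) or a CCAAT box (CCAAT) on either strand.
Hoxa10 distal start, chr6:52240855-52241104, minus strand: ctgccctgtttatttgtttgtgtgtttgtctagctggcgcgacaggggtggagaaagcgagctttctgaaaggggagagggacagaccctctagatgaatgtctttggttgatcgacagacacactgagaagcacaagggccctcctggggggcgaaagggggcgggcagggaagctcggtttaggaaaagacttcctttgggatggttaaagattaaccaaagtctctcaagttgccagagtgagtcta
Hoxa10 proximal start, chr6:52234940-52235189, minus strand: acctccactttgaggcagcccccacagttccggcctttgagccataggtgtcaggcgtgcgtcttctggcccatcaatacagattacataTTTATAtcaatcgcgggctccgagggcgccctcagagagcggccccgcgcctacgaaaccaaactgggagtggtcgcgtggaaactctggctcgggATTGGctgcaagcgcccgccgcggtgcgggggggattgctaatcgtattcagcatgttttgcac
Hoxa9, chr6:52227371-52227620, minus strand: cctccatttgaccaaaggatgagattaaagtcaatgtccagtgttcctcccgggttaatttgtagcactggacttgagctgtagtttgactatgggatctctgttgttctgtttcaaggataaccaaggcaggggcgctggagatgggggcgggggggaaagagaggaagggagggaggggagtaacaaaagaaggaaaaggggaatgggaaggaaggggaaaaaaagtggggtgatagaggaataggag
The proximal window of Hoxa10 held a TATA box on the opposite strand, 160 bases before the start, and a CCAAT box on the opposite strand 64 bases before it. Neither motif was in the distal window of Hoxa10 or in the window of Hoxa9. Over all 32851 RefSeq windows of this length, 12.4% held a TATA box and 33.8% a CCAAT box, and 1 and 4 of the 9 Hox windows did. The distal Hoxa10 window lies just outside the annotated gene, while the proximal Hoxa10 window and the Hoxa9 window lie inside the annotated gene spans. Overlap of the windows with exons was not tested, and the gene counts used here do not show which start was used. The GC content of the Hox windows ranged from 46.4% to 65.2% (median 58.0%), against a median of 52.4% over all windows.

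To ask whether loss of 1 Ddx41 allele went with a change in the Hox program, the 11 genes with at least 10 counts in every sample were compared between genotypes. These were Hoxa2, Hoxa3, Hoxa4, Hoxa5, Hoxa6, Hoxa7, Hoxa9, Hoxa10, Hoxb2, Hoxb3 and Hoxb4. P-values came from an edgeR quasi-likelihood fit to 13340 genes and were BH-adjusted over all of them. Its filter on low counts was passed by 13 of the 38 Hox genes.

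None of the 11 genes passed a BH-adjusted p of 0.05, a threshold that 29 genes (0.217%) passed over the whole table. At an unadjusted p under 0.05, 2 of the 11 passed (18.2%), Hoxa10 lower and Hoxa6 higher in Ddx41+/-, against 10.6% of all genes tested. With DESeq2, 1 Hox gene, Hoxa10, passed the adjusted threshold, which 156 genes passed over the whole table with that tool. Hoxa10 was the only one of the 11 (9.09%) whose CPM did not overlap between the genotypes, against 10.1% of all genes. The median log2 fold change (Ddx41+/- over Ddx41+/+) of the 11 genes was -0.14, beside -0.0048 for all genes. It was negative for 9 of the 11 genes and for 51.2% of all genes. Because these are bulk samples, fewer cells of a type and less RNA per cell cannot be told apart in any of these values.

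**Figure D2:**
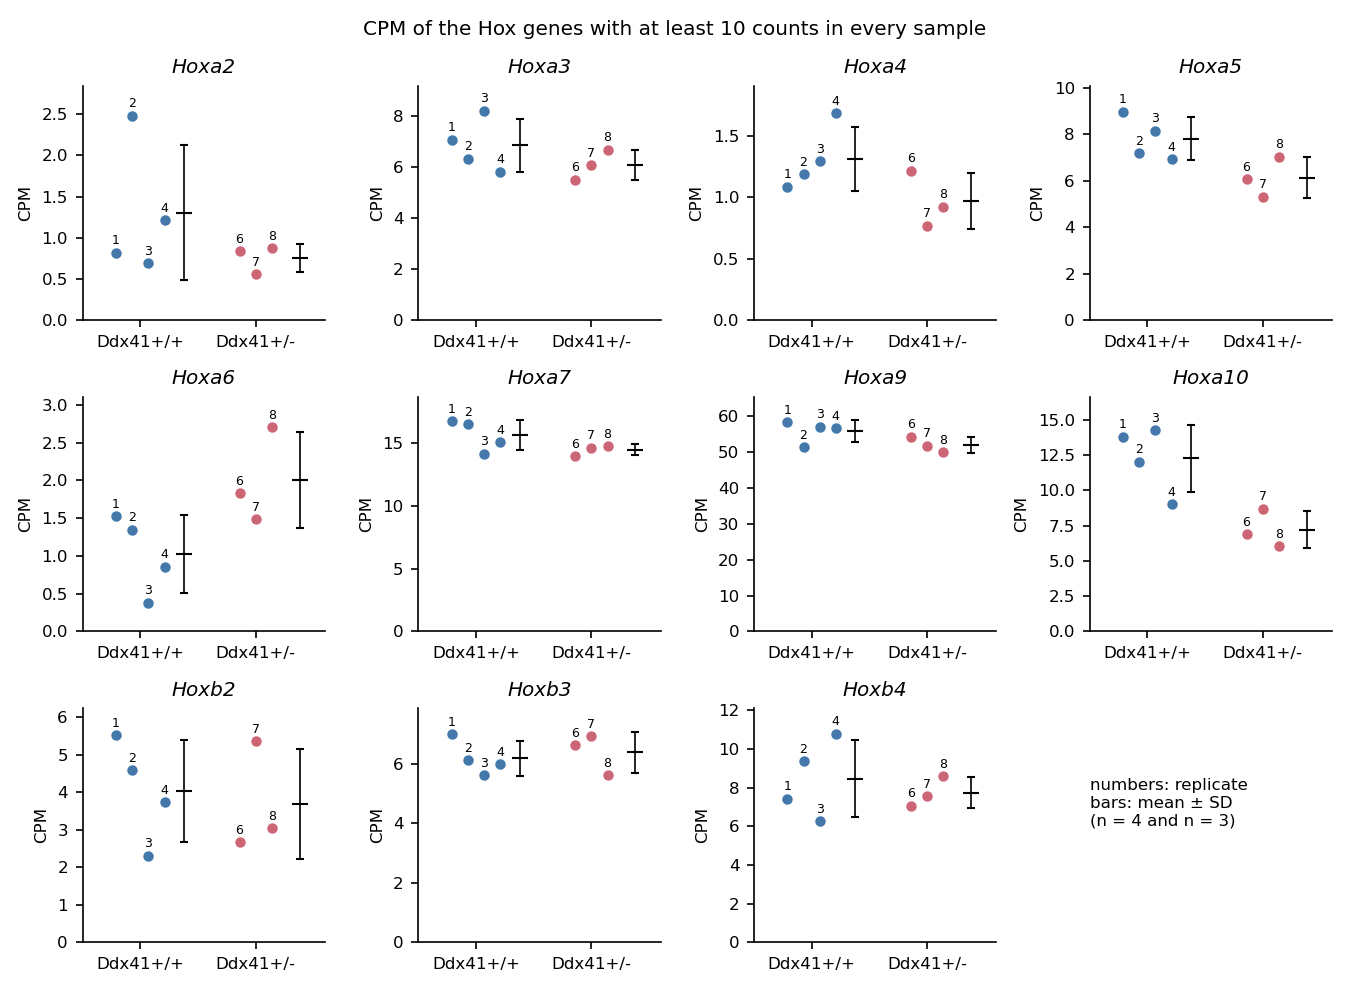
CPM of the 11 Hox genes with at least 10 counts in every sample, 1 panel per gene with an axis from 0, 1 point per sample numbered by replicate, and the mean ± SD of each genotype (n = 4 Ddx41+/+ and n = 3 Ddx41+/-). The genotypes overlap in every panel except that of Hoxa10, where the Ddx41+/- samples lie between 6.06 and 8.69 and the Ddx41+/+ samples between 9.03 and 14.3.

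Hoxa10, an Abd-B-type Hox gene known to favor progenitor growth over differentiation, had the largest difference relative to its error. It was at 13.8, 12.03, 14.3 and 9.03 CPM in Ddx41+/+ replicates 1 to 4 and at 6.91, 8.69 and 6.06 CPM in Ddx41+/- replicates 6, 7 and 8. All Ddx41+/- samples lay below all Ddx41+/+ samples, but the gap between the nearest samples of the genotypes, Ddx41+/+ replicate 4 and Ddx41+/- replicate 7, was narrow. The means were 12.3 ± 2.37 (SD, n = 4) and 7.22 ± 1.34 CPM (SD, n = 3), so that the Ddx41+/- mean was 58.8% of the Ddx41+/+ mean. The log2 fold change was -0.77 with an SE of 0.183, and the edgeR p was 0.00068 before and 0.108 after BH adjustment, rank 83 of all genes by p. The call depended on the tool. The adjusted p was 0.0093 with DESeq2 and 0.0297 with edgeR without the filter on low counts, and it was between 0.058 and 0.359 when 1 library was left out. Over the whole table, 156 genes passed the adjusted threshold with DESeq2 and 91 without the filter. An exact two-sided permutation test of the CPM values alone gave p = 0.0571, where the smallest p that 35 splits allow is 0.0286.

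Hoxa9, the neighbour of Hoxa10 on the chromosome and the most abundant Hox transcript, was at 58.5, 51.4, 57.1 and 56.6 CPM in Ddx41+/+ replicates 1 to 4. In Ddx41+/- replicates 6, 7 and 8 it was at 54.3, 51.8 and 49.95 CPM. The genotypes overlapped, with the lowest Ddx41+/+ sample under the middle Ddx41+/- sample. The log2 fold change was -0.10 with an SE of 0.075, the smallest error of any Hox gene (edgeR, BH-adjusted p = 0.667). The counts of Hoxa10, as a percent of those of Hoxa9, came to 23.6, 23.4, 25.0 and 15.95 in Ddx41+/+ replicates 1 to 4. The same ratio was 12.7, 16.8 and 12.1 in Ddx41+/- replicates 6, 7 and 8. On this ratio Ddx41+/+ replicate 4 fell below Ddx41+/- replicate 7, so the genotypes overlapped (exact permutation test, two-sided, p = 0.0857).

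Hoxa6, a homeobox gene of the middle of the cluster, had the larger of the 2 positive fold changes, the other being that of Hoxb3 at 0.045. It was at 1.52, 1.35, 0.379 and 0.856 CPM in Ddx41+/+ replicates 1 to 4, and at 1.83, 1.48 and 2.71 CPM in Ddx41+/- replicates 6, 7 and 8. Ddx41+/+ replicate 1 lay above Ddx41+/- replicate 7, so the ranges overlapped. These values rested on 12 to 120 counts per sample, with 12 in Ddx41+/+ replicate 3. The log2 fold change was 0.96 with an SE of 0.445, which passed an unadjusted but not the adjusted threshold (edgeR, BH-adjusted p = 0.459). Of 13 other settings, 7 gave an unadjusted p under 0.05, and without Ddx41+/- replicate 8 the log2 fold change was 0.68. Its neighbour Hoxa7, known in hematopoietic progenitors and in MLL-driven leukemia, was at 16.8, 16.5, 14.2 and 15.1 CPM in Ddx41+/+ and at 13.99, 14.65 and 14.8 CPM in Ddx41+/- samples. These ranges overlapped, and the log2 fold change was -0.11 with an SE of 0.117.

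Hoxa5, known to act on the choice between the myeloid and erythroid lineages, was at 8.97, 7.19, 8.15 and 6.93 CPM in Ddx41+/+ replicates 1 to 4. It was at 6.07, 5.31 and 7.03 CPM in Ddx41+/- replicates 6, 7 and 8. The highest Ddx41+/- sample was just above the lowest Ddx41+/+ sample. The log2 fold change was -0.35 with an SE of 0.176 (edgeR, BH-adjusted p = 0.513), a difference that did not pass the test.

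The genes toward the 3' end of the cluster, which in the embryo act in anterior regions, were among the lowest per kb of exon. For Hoxa3 this depended on the length used, with rank 9 by exon length and rank 6 by the longest transcript. Hoxa3 was at 7.08, 6.34, 8.21 and 5.83 CPM in Ddx41+/+ and at 5.51, 6.08 and 6.69 CPM in Ddx41+/- samples (log2 fold change -0.17, SE 0.181). Hoxa4 was at 1.09, 1.19, 1.29 and 1.69 CPM in Ddx41+/+ and at 1.22, 0.771 and 0.924 CPM in Ddx41+/- samples (log2 fold change -0.43, SE 0.410). Both overlapped between the genotypes. Hoxa2 lay between 0.695 and 2.48 CPM in Ddx41+/+ and between 0.564 and 0.879 CPM in Ddx41+/- samples. Its log2 fold change of -0.77 had the same size as that of Hoxa10 but an SE of 0.508. Ddx41+/+ replicate 2 held 96 of the 287 counts, and without that sample the log2 fold change was -0.26.

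The Hoxb genes showed no difference beyond the spread. Hoxb4 was at 7.45, 9.39, 6.29 and 10.8 CPM in Ddx41+/+ replicates 1 to 4 and at 7.08, 7.56 and 8.61 CPM in Ddx41+/- replicates 6, 7 and 8. The Ddx41+/- samples all lay inside the Ddx41+/+ range, and the log2 fold change was -0.13 with an SE of 0.190. Hoxb3 was at 6.99, 6.13, 5.62 and 5.99 CPM in Ddx41+/+ and at 6.63, 6.94 and 5.61 CPM in Ddx41+/- samples (log2 fold change 0.045, SE 0.175). Hoxb2 was at 5.51, 4.58, 2.31 and 3.73 CPM in Ddx41+/+ and at 2.67, 5.37 and 3.04 CPM in Ddx41+/- samples (log2 fold change -0.14, SE 0.307). The sign of each of these fold changes turned when a single library was left out.

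**Figure D3:**
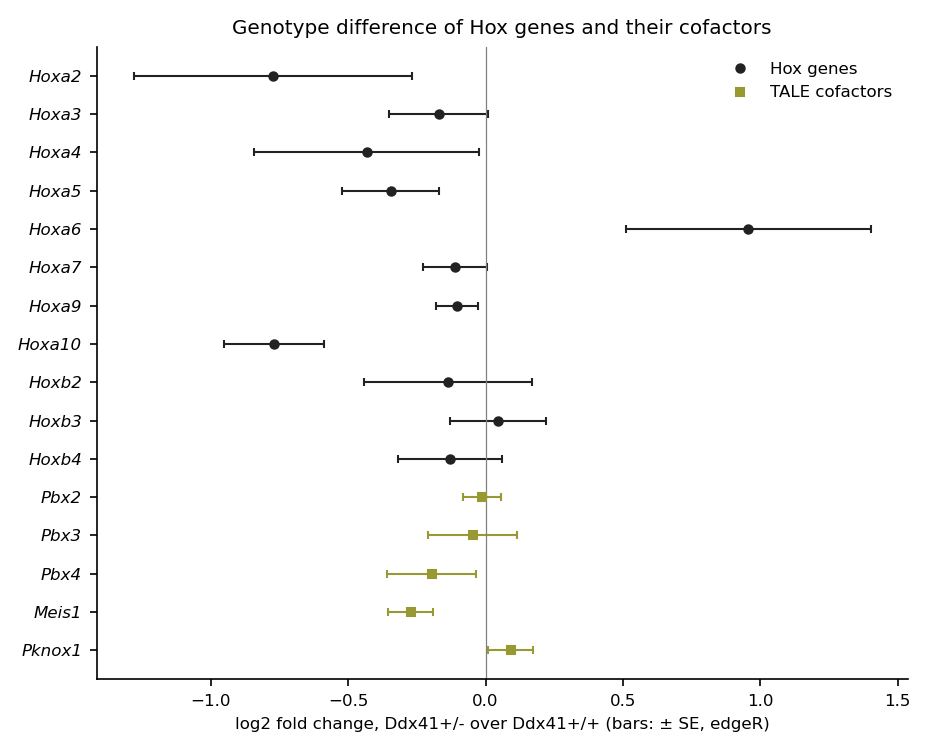
Log2 fold change of Ddx41+/- over Ddx41+/+ with its SE (edgeR) for the 11 Hox genes compared (circles) and of TALE cofactor genes (squares). Hoxa10 lies at -0.77 with a narrow bar, Hoxa2 at about the same value with a wide one, Hoxa6 on the opposite side, and Hoxa9 near 0.

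Summed over the cluster, the Hoxa genes were at 109.5, 98.7, 104.7 and 97.6 CPM in Ddx41+/+ replicates 1 to 4 and at 90.7, 89.6 and 89.3 CPM in Ddx41+/- replicates 6, 7 and 8. All Ddx41+/- sums lay below all Ddx41+/+ sums, and their mean was 87.6% of the Ddx41+/+ mean. Of all single genes tested, 10.1% had no overlap between the genotypes, and no such share was computed for sums. Without Hoxa10 the sums lay between 86.7 and 95.7 CPM in Ddx41+/+ and between 80.9 and 83.8 CPM in Ddx41+/- samples. In Ddx41+/+ samples Hoxa9 held a mean of 55.9 of the 90.3 CPM of that sum. Without Hoxa9 the sums lay between 40.99 and 50.98 CPM in Ddx41+/+ and between 36.4 and 39.4 CPM in Ddx41+/- samples. Without both Hoxa9 and Hoxa10 the sums overlapped. They were then 31.96 to 37.2 CPM in Ddx41+/+ and 29.1 to 33.3 CPM in Ddx41+/- samples. The summed Hoxb genes overlapped between genotypes, at 14.7 to 20.8 CPM in Ddx41+/+ and 16.8 to 20.6 CPM in Ddx41+/- samples.

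Hox proteins bind DNA with cofactors of the TALE homeodomain class, the Pbx, Meis and Pknox proteins. All 9 genes of this list were in the table, and 6 were tested. Meis1, the leading Hoxa9 partner in progenitors, was at 69.4 ± 4.98 CPM in Ddx41+/- (SD, n = 3) and at 83.8 ± 7.71 CPM in Ddx41+/+ samples (SD, n = 4), with no overlap between the genotypes. Its log2 fold change was -0.27 with an SE of 0.082. It did not pass the adjusted threshold (edgeR, BH-adjusted p = 0.245), though it had an unadjusted p under 0.05. Of the 6 tested cofactors 1 had such an unadjusted p, against 10.6% of all genes tested, and 10.1% of all genes had no overlap between the genotypes. Pbx2 (74.5 and 73.8 CPM in Ddx41+/+ and Ddx41+/-), Pbx3 (7.83 and 7.58), Pbx4 (11.5 and 10.03) and Pknox1 (55.1 and 58.7) had log2 fold changes between -0.20 and 0.09. None of these 4 genes passed at an unadjusted p of 0.05. Meis2 had no count in any sample, and Meis3 and Pknox2 were too low to test.

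Genes that keep the clusters on or off were present throughout, and the counts at an unadjusted p under 0.05 given here stand beside 10.6% of all genes tested. Of 23 tested genes of the trithorax and MLL complexes none passed the adjusted threshold, while Aff1 and Brpf1 had an unadjusted p under 0.05 on the higher side and Ing4 on the lower. The median log2 fold change of the 23 was 0.06. Of 31 Polycomb genes none passed, with Suz12 higher and Cbx2 and Cbx6 lower at an unadjusted p under 0.05, and a median of -0.02. Of 11 tested genes of other known regulators of Hox transcription none passed, with Tet2 and Xpo1 higher at an unadjusted p under 0.05. Cdx1, Cdx2 and Cdx4, which switch on Hox genes in the embryo, had no count in any sample.

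Many rows next to or within the clusters had no counts. Of 20 such rows in the table, 11 had no count in any sample, among them Hottip, Hotair, Haglr, Evx1 and Evx2. The 11 also include the microRNA genes Mir10b, Mir196a-2 and Mir615. The study's methods name polyA selection, so a count of 0 does not show that these microRNAs were absent. Hotairm1, a non-coding RNA of the Hoxa cluster, was tested at a mean of 0.526 CPM in Ddx41+/+ and 0.515 CPM in Ddx41+/- samples. The flanking genes Skap2 (132.6 and 128.8 CPM in Ddx41+/+ and Ddx41+/-), Mtx2 (34.6 and 32.8) and Atp5g1 (154.0 and 149.1) were well expressed, with log2 fold changes between -0.08 and -0.04. None of the 4 had an unadjusted p under 0.05.

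Of 14 genes that are known as targets or companions of Hox proteins in progenitors, none passed the adjusted threshold. At an unadjusted p under 0.05, 5 were lower in Ddx41+/- and none was higher, against 10.6% of all genes with such a p in either direction. These were the cytokine receptor gene Flt3, the adaptor gene Lmo2, the progenitor marker Cd34, the kinase gene Pim1 and the stem cell factor Mecom, with log2 fold changes from -0.36 to -0.16. The median over the 14 was -0.11, beside -0.0048 for all genes.

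Sums of marker genes of other cell states separated the genotypes as the Hoxa sum and Hoxa10 did. Over all genes tested, 10.6% had an unadjusted p under 0.05 and 0.217% passed the adjusted threshold. Of 19 tested stem cell enriched genes 18 had a negative log2 fold change, 9 of them with an unadjusted p under 0.05, and Txnip passed the adjusted threshold (232.3 against 179.0 CPM in Ddx41+/+ and Ddx41+/-). Their summed CPM lay between 667.5 and 808.3 in Ddx41+/+ and between 558.5 and 627.0 in Ddx41+/- samples. Of 12 granulocyte-monocyte genes 11 had a positive log2 fold change, 4 of them with an unadjusted p under 0.05. The sum of the 12 lay between 19970 and 23940 CPM in Ddx41+/+ and between 24670 and 26200 CPM in Ddx41+/- samples. Mpo alone held a mean of 14300 of the 22300 CPM of this sum in Ddx41+/+ samples. Taken gene by gene, only Mpo and Elane of this list did not overlap between the genotypes. Of 11 mature neutrophil genes 10 had a positive log2 fold change, all 10 with an unadjusted p under 0.05, and Mmp9 passed the adjusted threshold. The sum of the neutrophil list lay between 817.7 and 1337 CPM in Ddx41+/+ and between 1422 and 2374 CPM in Ddx41+/- samples. The genotypes did not overlap in any of these 3 sums. The part of these cell states in the difference of Hoxa10 and of the Hoxa sum was not tested.

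**Figure D4:**
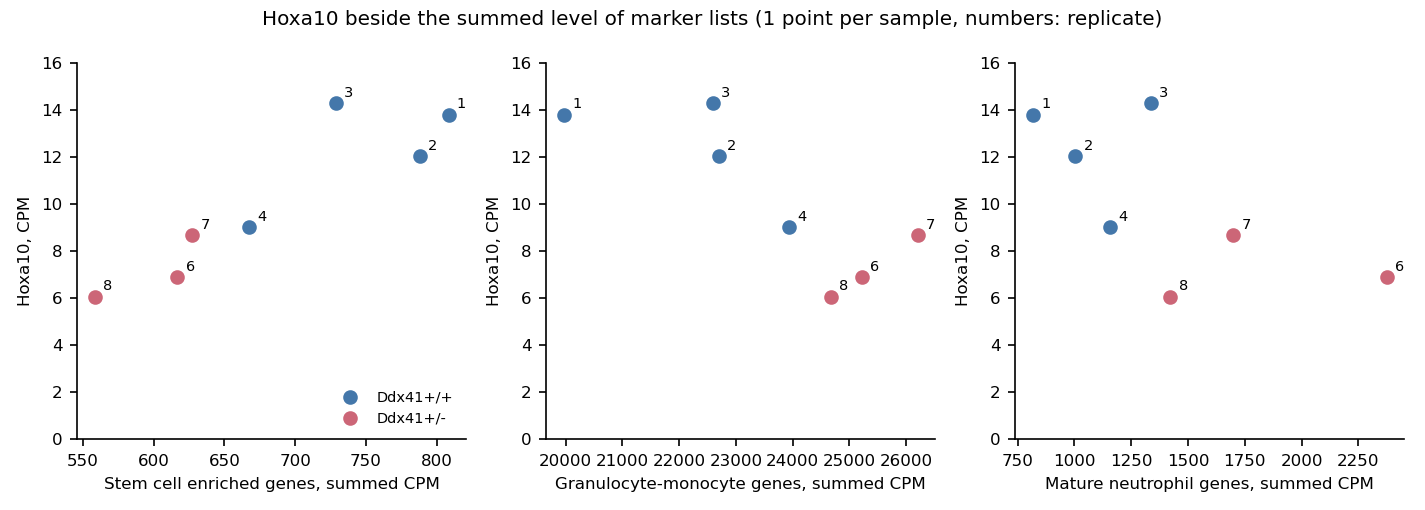
Hoxa10 in CPM (vertical axis, from 0) against the summed CPM of stem cell enriched, granulocyte-monocyte and mature neutrophil genes (horizontal axes, not from 0), with 1 point per sample numbered by replicate for Ddx41+/+ (blue) and Ddx41+/- (red). The Ddx41+/- samples have the lower stem cell sums and the higher granulocyte-monocyte and neutrophil sums in all 3 panels, and Ddx41+/+ replicate 4 lies nearest to them in the first and the second.

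Other marker lists overlapped between the genotypes in their summed CPM. The megakaryocyte-erythroid list lay between 728.1 and 940.3 CPM in Ddx41+/+ and between 669.3 and 769.7 CPM in Ddx41+/- samples, with Pf4 past the adjusted threshold (48.6 against 33.0 CPM). The B-lineage list ranged from 46.0 to 63.8 CPM and from 61.9 to 85.6 CPM, with Blnk past it (4.97 against 9.44 CPM). The log2 fold change was negative for 9 of 12 megakaryocyte-erythroid genes and positive for 9 of 10 B-lineage genes. For lymphoid-primed genes the ranges were 443.2 to 540.3 CPM in Ddx41+/+ and 430.3 to 502.9 CPM in Ddx41+/- samples. For T and NK cell genes they were 233.0 to 281.9 and 261.8 to 292.3 CPM, and for stromal and endothelial genes 182.2 to 208.2 and 202.9 to 211.6 CPM. An unadjusted p under 0.05, held by 10.6% of all genes tested, was found in most of these lists. Of 12 megakaryocyte-erythroid genes 5 were lower in Ddx41+/- at that level and none higher. Of 10 tested B-lineage genes 4 were higher and none lower, and of 10 tested lymphoid-primed genes 3 were lower and none higher. Of 12 stromal and endothelial genes 2 were higher and 2 lower, and of 5 tested T and NK cell genes none passed.

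Hox genes differed widely in how much they varied between samples of the same genotype. Among Ddx41+/+ samples the coefficient of variation of the CPM was 5.56% for Hoxa9, 7.74% for Hoxa7 and 9.33% for Hoxb3, against 50.2% for Hoxa6 and 62.7% for Hoxa2. For Hoxa2, replicate 2 was at 2.48 CPM and the other Ddx41+/+ samples were between 0.695 and 1.22 CPM. Among Ddx41+/- samples the coefficient was 4.22% for Hoxa9, 2.96% for Hoxa7 and 10.9% for Hoxb3, against 22.6% for Hoxa2, 31.4% for Hoxa6 and 39.6% for Hoxb2, the highest of the 11 genes in that genotype. At the mean count over all 7 samples, counting error alone would give 2.21% for Hoxa9, 13.2% for Hoxa6 and 15.6% for Hoxa2. These values assume that each count was an independent molecule. The spread among Ddx41+/+ samples exceeded the counting error for each of these 3 genes. Ddx41+/+ replicate 1 had the highest CPM for 5 of the 11 genes, and no Ddx41+/- sample had it except replicate 8 for Hoxa6.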

How the data were processed

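RNA-seq counts of LSK cells from 4 recipients of Ddx41+/+ marrow and 3 recipients of Ddx41+/- marrow were used, grouped by the genotype in the labels. The authors isolated RNA, sequenced paired ends and deposited a table of raw read counts by gene symbol without normalization. Per the labels, reads were checked with FastQC 0.11.7, aligned to mm10 with HISAT2 2.0.5 and counted with featureCounts 1.5.2. The annotation, the strand setting, the treatment of shared reads and whether both reads of a pair were counted are not given in the sources used here.

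Counts were fitted in edgeR 4.0.16 (R 4.3.3, TMM scaling, filterByExpr by genotype, robust quasi-likelihood fit without covariates), and p-values were BH-adjusted over 13340 genes with a threshold of 0.05. The biological coefficient of variation was 12.9%. SEs were the size of the log2 fold change divided by the root of the F statistic. CPM used TMM-scaled totals, and exact permutation tests were two-sided on the mean difference. Alternatives were DESeq2 1.42.0, limma-voom (limma 3.58.1), median-of-ratios scaling, library totals only, no filter, a non-robust fit, leaving out each library, other count minima and other exon lengths.

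The members and gene lists were chosen with earlier results of these data known, and the lists were written from general knowledge. Genes were named by rule. All Hox genes with at least 10 counts in every sample were named, the 10 highest per kb and those with an unadjusted p under 0.05 or no overlap with values in every sample. TALE and cluster-neighbour genes tested, and list genes past the adjusted threshold, were named as well. Other list genes were named after their values were seen. Positions came from GENCODE M21 (GRCm38) by symbol, which matched 23376 of 24421 symbols and all 38 Hox genes, and promoters from RefSeq. The 1 Hoxb row left out by the rule and values of some other genes are not reported here. The labels do not say that samples shared a batch or litter, and p-values measure the spread between these recipient mice. The number of marrow donors per genotype is not given, so recipients may share a donor. In that case the p-values do not measure the spread between independent donors. The paper reports the use of littermates in its transplant studies, without saying which samples they were.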

Additional observations from a re-analysis of the deposited data

Results flagged for a closer look

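The summed CPM of all 38 Hox genes in Ddx41+/+ replicate 1 was 130.4, far above the next Ddx41+/+ sample at 119.6 (gap over range 0.908). The summed CPM of the Hoxb genes in Ddx41+/+ replicate 3 was 14.7, far below the next Ddx41+/+ sample at 20.4 (gap over range 0.94). Both stood out by Dixon's criterion for a group of 4 samples, the only group size it was applied to. Of 16 values checked, 0.8 would be picked out by chance at 1 in 20.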

How the results depend on the processing

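No paired analysis was made because the labels name no pairs of samples. The replicate numbers of the genotypes, 1 to 4 and 6 to 8, do not show whether samples were paired. The log2 fold change of Ddx41 kept its direction and its call under all 13 alternatives (-0.56 to -0.50). That of Hoxa10 kept its direction and an unadjusted p under 0.05 under all 13 (-0.92 to -0.66, largest p 0.00549), with a BH-adjusted p of 0.0093 to 0.359.

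The number of Hox genes past the BH-adjusted threshold, 0 in the main analysis, was 1 with DESeq2 and 1 without the filter on low counts, Hoxa10 in both, and 0 under the other 11 alternatives. The number past an unadjusted p of 0.05 was 1 in place of 2 with library totals only and with a non-robust dispersion, Hoxa6 being lost, and 1 to 2 when 1 library was left out. Over the whole table the count of 29 genes past the adjusted threshold was 15 with library totals only, 156 with DESeq2, 10 with limma-voom, 91 without the filter and 14 with a non-robust dispersion. It was 7 to 41 when 1 library was left out, with 7 without Ddx41+/+ replicate 2, 16 without Ddx41+/+ replicate 3, 14 without Ddx41+/- replicate 7 and 9 without Ddx41+/- replicate 8. The cause of these changes was not tested.

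The median log2 fold change of the Hox genes was -0.25 to -0.10 when 1 library was left out, with -0.25 without Ddx41+/+ replicate 3. The log2 fold change of Hoxb2 turned to 0.052 without Ddx41+/+ replicate 1 and to 0.05 without Ddx41+/- replicate 6 (range -0.504 to 0.052). That of Hoxb3 turned to -0.018 without Ddx41+/- replicate 7 (range -0.018 to 0.132), and that of Hoxb4 to 0.007 without Ddx41+/+ replicate 4 (range -0.25 to 0.007). The number of Hox genes compared was 9 to 13 under other count minima. In the order by level per kb, 5 of 11 genes kept their rank with the longest transcript as length and 8 with the exon length shared with no other gene. Hoxa6 rested on 12 to 120 counts per sample. Its counting error of 13.2%, taken at the mean count over all 7 samples, stood beside a spread of 50.2% between Ddx41+/+ samples. Counting error is larger for the sample with 12 counts.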
